A study of Homo sapiens with 6 samples.

Results

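Dense clusters of narrow H3K27ac peaks are stretches of the SU-CCS-1 genome in which many separate, short acetylated segments lie close together. They were chosen by joining peaks of the merged list on the same chromosome when the gap between them was at most 12.5 kb, and by keeping joined regions with 8 or more peaks in which no peak was wider than 5 kb. The rule kept 182 of 17049 joined regions. These clusters held 1849 of 30784 peaks, or 6.01% of the peaks and 5.76% of the bases under peaks. Because the members were selected on measured peak number, spacing and width, values of those 3 quantities describe the choice and are given without a test.

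H3K27ac-bearing chromatin was immunoprecipitated and sequenced (ChIP-seq) from SU-CCS-1, an established cell line of human clear cell sarcoma (CCS) whose labelled genotype is EWSR1::ATF1 (EA1). CCS is a soft tissue sarcoma with melanocytic features, and EA1 joins part of EWSR1 to the DNA-binding domain of ATF1, a factor of the ATF/CREB family. The samples were 3 H3K27ac libraries and 3 input libraries of sonicated chromatin without immunoprecipitation, all from the same line, so no treatment or genotype was compared and 1 line stands for the tumor type. A single merged peak list without signal values served for all libraries, so spread between replicates could not be given, and intervals below cover counting only. The methods give an approximate sequencing depth common to the ChIP-seq libraries, but the list carries no read counts per sample. Of 18 melanocyte lineage genes, 12 had a promoter peak, among them MITF, SOX10, PMEL and MLANA. That is 66.67%, near the 63.4% of all coding genes with one, and TYR, TYRP1, TRPM1, KIT, SLC45A2 and SLC24A5 had none. Of 10 skeletal muscle genes, TTN alone had one.

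H3K27ac, acetylation of lysine 27 on histone H3, is laid down by the acetyltransferases EP300 and CREBBP at active promoters and enhancers. Transcription factors bind short stretches of DNA from which a nucleosome has been moved, so a single regulatory element often appears as acetylated flanks around a dip. Groups of such elements that lie near each other are stitched into longer regions when super-enhancers (SEs) are called. A dense cluster of narrow peaks can therefore hold several enhancers of one gene, the split flanks of fewer elements, or a row of neighbouring promoters, and a peak list without signal does not tell these apart.

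Among the gaps between peaks of the clusters that were searched for printing, 232 measured 50 to 300 bases, and 10 of them held TGACGTCA, the full ATF/CREB site or cAMP response element, or a run of TGA and TCA triplets. A run had more than 4 triplets with at most 5 bases between them. Of these, 7 that lay in clusters of mostly unique sequence are printed below as the + strand of hg38, 5′ to 3′, with the TGACGTCA or the triplets of the run in capitals. They are shown because they carry the motif classes that the comparison of gaps with peaks below rests on. A match is a description of the letters and does not show binding.
JARID2 gap, chr6:15473941-15474150: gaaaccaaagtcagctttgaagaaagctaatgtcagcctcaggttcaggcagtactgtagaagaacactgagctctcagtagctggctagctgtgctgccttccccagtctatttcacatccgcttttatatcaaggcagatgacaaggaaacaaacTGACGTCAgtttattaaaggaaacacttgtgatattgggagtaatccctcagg
PLD1 gap, chr3:171775111-171775370: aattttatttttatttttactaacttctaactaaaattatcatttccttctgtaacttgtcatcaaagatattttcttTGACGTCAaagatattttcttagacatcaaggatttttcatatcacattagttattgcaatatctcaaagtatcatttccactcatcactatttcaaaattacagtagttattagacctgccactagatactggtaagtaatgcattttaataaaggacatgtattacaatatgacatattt
MTHFD1L gap, chr6:151044861-151045150: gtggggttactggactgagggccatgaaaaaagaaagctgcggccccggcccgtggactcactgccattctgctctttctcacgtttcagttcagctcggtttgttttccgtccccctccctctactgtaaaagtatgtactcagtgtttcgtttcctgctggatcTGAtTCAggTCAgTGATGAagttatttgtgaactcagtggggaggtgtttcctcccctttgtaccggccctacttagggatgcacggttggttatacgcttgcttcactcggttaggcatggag
FARP1 gap, chr13:98268071-98268300: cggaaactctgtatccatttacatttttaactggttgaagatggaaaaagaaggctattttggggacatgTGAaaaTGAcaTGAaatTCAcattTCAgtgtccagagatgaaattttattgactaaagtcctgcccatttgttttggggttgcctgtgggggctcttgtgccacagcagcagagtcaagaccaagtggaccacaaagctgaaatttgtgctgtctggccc
TAF4 gap, chr20:61970421-61970700: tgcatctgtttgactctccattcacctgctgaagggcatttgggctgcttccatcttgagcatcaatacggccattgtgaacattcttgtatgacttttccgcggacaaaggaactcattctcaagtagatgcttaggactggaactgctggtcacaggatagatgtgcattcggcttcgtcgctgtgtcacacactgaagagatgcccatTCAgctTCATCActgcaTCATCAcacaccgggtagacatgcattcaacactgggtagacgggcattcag
LGALS3 gap, chr14:55079121-55079340: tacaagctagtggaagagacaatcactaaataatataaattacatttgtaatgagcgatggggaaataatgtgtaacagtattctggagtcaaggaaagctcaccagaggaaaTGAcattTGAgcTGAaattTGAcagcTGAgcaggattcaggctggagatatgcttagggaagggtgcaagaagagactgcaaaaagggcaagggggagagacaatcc
CHI3L2 gap, chr1:111267221-111267450: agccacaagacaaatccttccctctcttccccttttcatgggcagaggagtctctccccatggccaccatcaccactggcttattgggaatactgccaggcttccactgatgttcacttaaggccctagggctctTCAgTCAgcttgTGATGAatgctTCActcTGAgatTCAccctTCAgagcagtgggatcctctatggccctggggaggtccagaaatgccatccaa

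The JARID2 and PLD1 gaps each held 1 TGACGTCA. The JARID2 gap was the last of a 9-peak cluster inside the gene, which encodes a cofactor of the Polycomb repressive complex, and it lay between peaks of 3030 and 710 bases. The PLD1 gap separated the first peaks, of 1320 and 3190 bases, in a 10-peak cluster at the gene of a phospholipase D, and had a GC content of 25.77%. The runs held 5 triplets in the MTHFD1L, FARP1, TAF4 and LGALS3 gaps and 8 in CHI3L2. The LGALS3 run consisted of TGA alone, whereas the TAF4 run consisted of TCA, the same triplet read on the other strand. The gaps at JARID2, PLD1, MTHFD1L, FARP1 and TAF4 lay in introns of protein-coding genes, and those at LGALS3 and CHI3L2 lay outside genes, 15118 and 12609 bases from the nearest start site.

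Most clusters were near the lower limit in peak number. In all, 64 clusters had 8 peaks, 41 had 9 and 25 had 10, while 39 had 12 or more and 5 had 20 or more. The median span was 36.95 kb (quartiles 29.74 and 46.48 kb) and ranged from 10.18 to 99.29 kb. Peaks covered a median of 36.56% of a cluster. The median peak was 980 bases wide, against 1060 bases over the whole list. The median gap inside a cluster was 1200 bases. Gaps of 1 kb or less numbered 776 of 1667 (46.55%). That share was 52.05% in the 135 dense regions that held a peak wider than 5 kb, and 44.8% in the 1114 clusters of 4 to 7 narrow peaks. The share in the clusters lay between these values.

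The cluster with the most peaks lay at SLC16A3, which encodes a lactate exporter, at chr17:82206451-82304700. It had 26 peaks over 98.25 kb, of which 21 were promoter-associated, meaning that at least 1 base lay within 3 kb of an annotated transcript start. Its peaks were 410 to 4750 bases wide, and start sites of SLC16A3, CSNK1D (a casein kinase of the circadian clock) and CCDC57 lay inside it. The next was at the 5′ part of MTHFD1L, a mitochondrial enzyme of folate metabolism (chr6:150864761-150944590), with 24 peaks over 79.83 kb, 6 of them promoter-associated. A separate 9-peak cluster of 25.01 kb lay farther along the same gene, 76.59 kb away. Next on chromosome 6 was AKAP12, which encodes a scaffold that anchors protein kinase A (chr6:151324451-151394680), with 22 peaks over 70.23 kb, 11 of them promoter-associated. The AKAP12 cluster started 278.3 kb after the second MTHFD1L cluster ended.

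MERTK, a receptor tyrosine kinase, held 22 peaks over 63.54 kb wholly inside the gene (chr2:111929551-111993090). Its peaks were 420 to 3300 bases wide with a median gap of 800 bases, 17 of them were distal, that is, farther than 3 kb from any start, and 13 of its 21 gaps were 1 kb or shorter. The 20-peak cluster at H2BC5 (chr6:26155141-26254430) had the opposite makeup, with all 20 peaks promoter-associated. RREB1, a zinc finger factor downstream of Ras signalling, had 17 peaks over 59.86 kb, 13 of them distal. PSAP, the precursor of lysosomal sphingolipid activators, and SYNDIG1, a synaptic membrane protein, had 16 peaks each, over 54.45 and 50.3 kb. DUSP10, a phosphatase that inactivates stress-activated MAP kinases, had its 16 peaks in only 32.38 kb, with 53.06% of the span under peaks. The most compact of all clusters was an 8-peak cluster of 10.18 kb whose nearest coding start, 19.22 kb away, was that of ADGRD1, an adhesion G protein-coupled receptor. Peaks covered 71.81% of it, its 7 gaps measured 140 to 800 bases, and none of its peaks was promoter-associated.

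**Figure D1:**
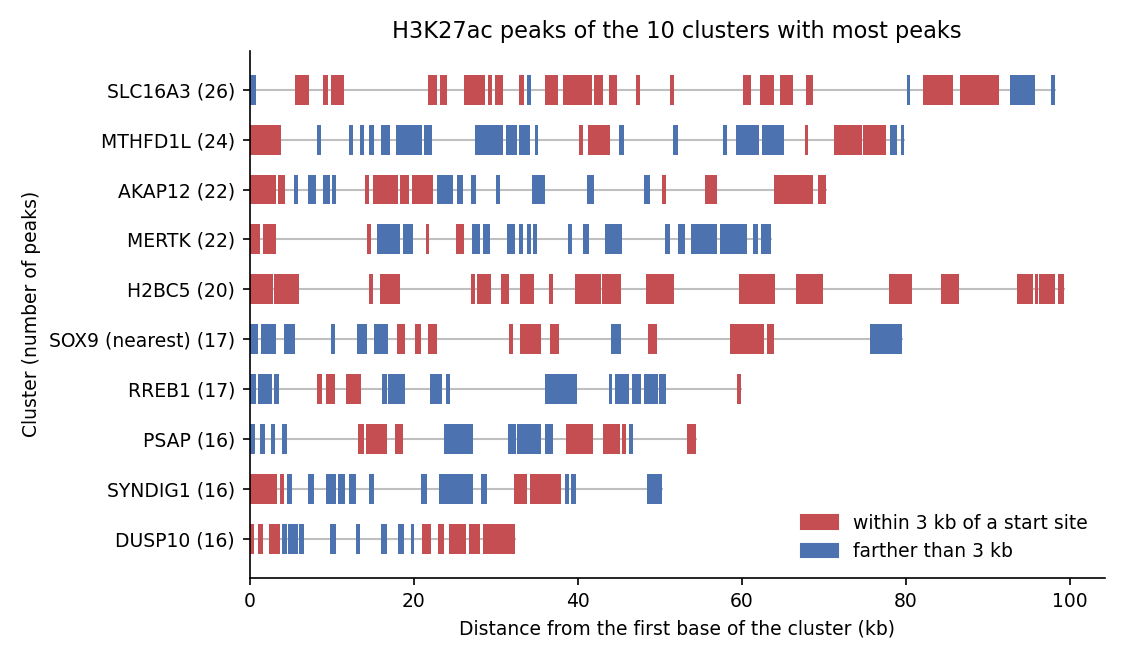
Peaks of the 10 clusters with the most peaks, each drawn from its own first base (x axis, kb) and named by the protein-coding gene it overlapped most or, for SOX9, by the nearest one, with the number of peaks in parentheses. Bars are peaks to scale, red where promoter-associated and blue where distal. All 20 peaks of H2BC5 are red, whereas 17 of 22 in MERTK are blue.

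Of the 1849 peaks, 943 (51.0%, 95% Wilson interval 48.72 to 53.27%) were promoter-associated, against 61.3% of all peaks in the list. The share was 53.22% in dense regions with a wider peak and 53.08% in clusters of 4 to 7 narrow peaks, so that the value was close to that of other grouped peaks and below that of the list as a whole, in which single promoter peaks are frequent. A start site lay inside 23.2% of the peaks, against 42.08% of all peaks. The clusters spread over the whole range, with 23 clusters made of promoter-associated peaks alone and 19 with none. Of the 906 distal peaks in clusters, 70.53% (67.48 to 73.41%) were intronic to a protein-coding gene, against 54.03% of all distal peaks. They lay outside genes in 17.33%, against 30.81%. The corresponding intron share was 73.49% in dense regions with a wider peak and 58.15% in smaller clusters.

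Promoter-associated peaks of the clusters had lower GC and CpG values than those of the list. Their median GC content was 52.97%, against 58.2% for all promoter-associated peaks, and their ratio of observed to expected CpG was 0.352 against 0.642. Grouped peaks elsewhere were similar, with 54.25% GC and a ratio of 0.345 in dense regions with a wider peak, and 54.41% and 0.405 in clusters of 4 to 7 narrow peaks. For distal peaks the medians were 47.63 and 47.71% GC, and the CpG ratios were 0.257 and 0.259. CpG-rich stretches, or CpG islands, accompany the main promoters of most widely expressed genes.

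The clusters fell into 4 kinds of locus. In all, 53 clusters (29.12%, 23.01 to 36.1%) lay wholly within 1 protein-coding gene, 54 covered part of 1 gene and sequence beyond it, 60 touched several coding genes without lying inside 1 of them, and 15 touched none. Of the clusters within 1 gene, 5 also overlapped further coding genes, so that 65 in all touched several. Over all joined regions, which are mostly single peaks, 35.8% lay within 1 protein-coding gene. Among other grouped peaks it was 25.93% of dense regions with a wider peak and 32.68% of clusters of 4 to 7 narrow peaks. The share for the clusters depended on the rule. It was 52.83% with a joining distance of 5 kb, 61.54% without start-site peaks and 11.11% with peaks within 1000 bases counted as 1. The 35.8% was not recomputed under those rules, so the direction of the difference is left unsettled. Promoter-associated peaks made up 33.02% of peaks in clusters within 1 gene, 44.09% in those with 1 gene and beyond, 78.33% in those touching several genes, and 31.58% in those without a coding gene. GC content followed the same order for the first 3 kinds, with medians of 46.26, 50.53 and 57.87%, and the median gap lengthened from 850 to 1110 and 1890 bases. Other grouped peaks showed the same order. Their promoter-associated shares were 33.79, 44.9 and 69.71% in dense regions with a wider peak, and 37.81, 55.79 and 82.52% in clusters of 4 to 7 narrow peaks. Median GC content and median gap also rose in that order in both. The kinds of locus and the promoter calls came from the same gene annotation, so the order of promoter-associated shares is partly built in. None of the 53 clusters within 1 gene held the outermost start of the gene it was named by.

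**Figure D2:**
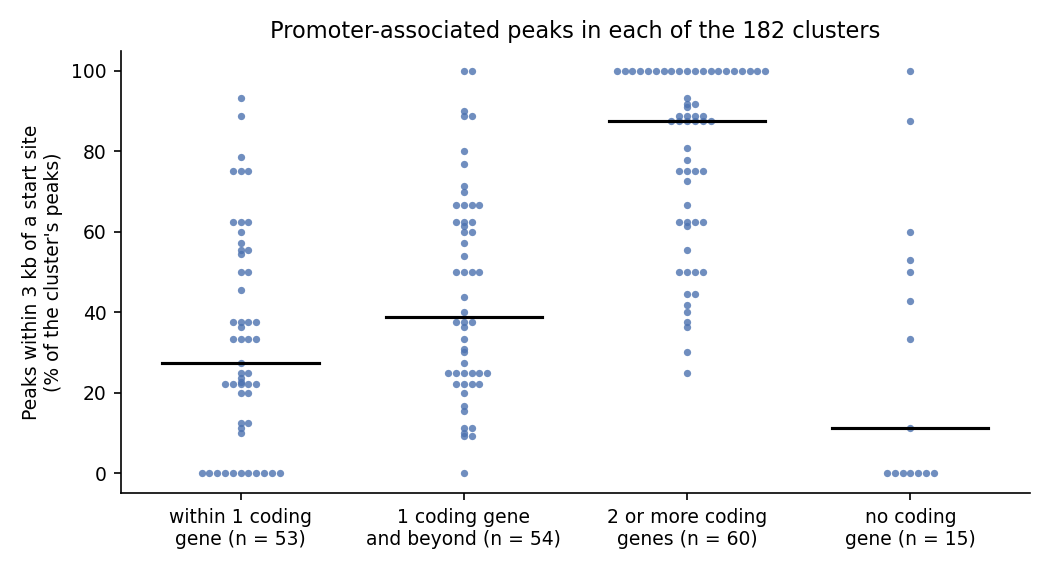
Share of promoter-associated peaks in each cluster (y axis, % of its peaks), by kind of locus (x axis). Points are clusters and black lines are medians, which are 27.27, 38.75, 87.5 and 11.11% from left to right. At 100% stand 20 of the 60 clusters that touch several coding genes and none of the 53 within 1 gene. Both axes rest on the same gene annotation and are not independent.

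The clusters inside a single gene occupied long genes. The 53 containing genes had a median length of 192.9 kb (quartiles 105.8 and 276 kb), and 43 of them were longer than 100 kb. Only a gene as long as the cluster can contain it, and the 13894 coding genes of at least 12.6 kb, the shortest such cluster, had a median of 48.59 kb. Containing genes were of like length for other grouped peaks, with medians of 188 kb for dense regions with a wider peak and 156.2 kb for clusters of 4 to 7 narrow peaks. The midpoint of the cluster lay in the first part of the gene in 12 cases, in the middle part in 27 and in the last part in 14, when each gene was cut into 3 equal parts. The median position was 48.02% of the way along the gene. Only clusters wholly inside the gene were counted, which keeps midpoints away from the ends. How many midpoints this alone would place in the middle part was not computed. No preference for the middle is therefore read from these positions.

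Among clusters of 10 or more peaks, 7 had no promoter-associated peak, of which those at PRICKLE2, PDE4B, CUX1, FARP1 and TMTC2 lay inside the gene and those nearest to TBPL2 and TMEM154 touched no coding gene. PRICKLE2, a component of planar cell polarity, had 12 peaks of 420 to 1810 bases over 42.73 kb. PDE4B, a phosphodiesterase that breaks down cAMP, had 12 peaks over 39.74 kb (chr1:66261861-66301600), centred 84.05% of the way along its 582.1 kb. CUX1, a homeobox factor, had 12 peaks over 37.9 kb, of which the widest, at 4960 bases, was just under the width limit. FARP1 had 11 peaks over 45.87 kb. Smaller intragenic clusters without promoter-associated peaks included JARID2, the histone acetyltransferase KAT6B, the polarity protein PARD3, the lipid kinase PIP4K2A and the myosin MYO9B, with 8 or 9 peaks each. Other clusters inside single genes lay at genes of signalling and cytoskeletal proteins, such as the Src-family kinase FYN (11 peaks, 62.93 kb), the Rap exchange factor RAPGEF1 (9 peaks), the actin-capping protein CAPZB (15 peaks) and the Hippo pathway kinase LATS2 (8 peaks). Some intragenic clusters were rich in promoter-associated peaks, with 14 of 15 at SEPTIN9, which encodes a cytoskeletal GTPase, 8 of 9 at ANKRD6 and 11 of 14 at LRPPRC, a regulator of mitochondrial mRNA. A coding start lay inside 40 of the 53 clusters.

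At the other end, 10 clusters of 10 or more peaks had promoter-associated peaks alone, led by H2BC5 (20 peaks), RPL10 (12), ECI1 (12) and WDR90 (11). The RPL10 cluster, at chrX:154368111-154445140, held the starts of 8 coding genes, among them RPL10 of the large ribosomal subunit, the actin cross-linker FLNA and the nuclear envelope protein EMD. The HYAL1 cluster, at chr3:50290811-50359680, had 10 peaks and the starts of 12 coding genes, including the hyaluronidases HYAL1, HYAL2 and HYAL3 and the growth regulators RASSF1, NPRL2 and TUSC2. The 8 peaks of the TAPBP cluster, at chr6:33270761-33323930, accompanied the starts of 9 coding genes, among them the peptide-loading factor TAPBP, the histone chaperone DAXX and RPS18. Across all clusters, 32 held no coding start, 92 held 1 and 18 held 2. In all, 353 coding genes, or 1.76% of 20015, had a start in a cluster, and 386, or 1.93%, overlapped one. Any annotated transcript start of a gene counted. By the outermost start alone the number was 289, and 309 genes had a start inside a peak of a cluster. Starts of 161 lncRNA genes and 26 miRNA genes also lay in clusters.

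Of the 15 clusters without a coding gene, the 4 with the most peaks lay nearest to SOX9, PLGLB2, MYC and JADE1. The PLGLB2-side cluster, of 15 peaks over 61.99 kb, lay in copied sequence (70.4% of the 50-base words under its peaks occurred again in the genome). The 17-peak cluster at chr17:72554701-72634210 spanned 79.51 kb and lay 433.7 kb from its nearest coding start, that of SOX9, a factor of neural crest and cartilage. Of its peaks, 9 were promoter-associated through other annotated genes, of which 2 started inside it. It held 13 runs of TGA or TCA triplets, the highest number of any cluster. A 14-peak cluster lay 118.5 kb from the start of MYC, the growth-promoting transcription factor, with peaks of 430 to 3190 bases over 57.99 kb. All 14 peaks were centred in annotated genes other than protein-coding ones. Of the peaks, 6 were promoter-associated through such genes, of which 2 started inside the cluster. A 12-peak cluster of 51.16 kb lay 205.8 kb from the start of JADE1. Proximity is stated as distance alone, since contacts between these regions and the genes were not measured here.

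Of the gene lists examined, replication-dependent histones had the highest share in clusters. These genes supply the histones of newly replicated chromatin and lie in compact groups. Of 69 such genes, 31 (44.93%, 33.77 to 56.62%) had a start in a cluster, against 1.76% of all coding genes, and all 31 lay in 3 clusters, so they are not independent of each other. The H2BC5 cluster held 16 of them, including the linker histones H1-3 and H1-4, and the H1-1 cluster, which ended 96.35 kb before it at chr6:26016101-26058790, held 9 with 12 peaks, of which 11 were promoter-associated. The H4C15 cluster on chromosome 1 (chr1:149830911-149863060) held the other 6, the gene pairs H2AC18 and H2AC19, H3C14 and H3C15, and H4C14 and H4C15. In that cluster 90.5% of the 50-base words under peaks occurred again in the genome, so reads there could have come from another copy, and 25 histone genes remained without it. Another 9 histone genes started in dense regions with a wider peak, which is 13.04% of the list, against 1.32% of all coding genes. All 9 lay in a single region, chr6:27806811-27839730, so they are not independent either.

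HOX genes, which set position along the body axis, had 6 of 39 members (15.38%, 7.247 to 29.73%) in a cluster, and all were HOXC genes in 1 cluster of 8 peaks at chr12:53972791-54021860. It held the starts of HOXC4, HOXC6, HOXC8, HOXC9, HOXC10 and HOXC11, and 7 of its peaks were promoter-associated. Over 53 clustered protocadherins, 55 keratins and 19 HLA genes, families that also lie in tight groups, no start fell in a cluster. The upper limits were 6.758, 6.528 and 16.82%, so each interval includes the 1.76% of all coding genes. Only 13.21, 3.636 and 47.37% of these genes had a promoter peak, against 63.4% of all coding genes. Set against 1.76%, ribosomal proteins had 4 of 86 (4.651%, 1.823 to 11.36%), namely RPL10, RPL23A, RPS2 and RPS18. Zinc finger ZNF genes had 4 of 508 (0.787%, 0.307 to 2.007%), and solute carriers had 6 of 367 (1.635%), at the background, including the nucleoside transporter SLC29A1.

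None of 18 melanocyte lineage genes had a start in a cluster (upper limit 17.59%), an interval that includes the 1.76% of all coding genes. Of these genes 4, the lineage factors MITF and SOX10, the melanosome fibril protein PMEL and the melanosomal transport protein OCA2, had one in a dense region with a peak wider than 5 kb (22.22%, against 1.32% of all coding genes). OCA2 also overlapped a cluster away from its start, at chr15:27722511-27778830, with 12 peaks over 56.32 kb. Its peaks were 400 to 3990 bases wide, covered 21.86% of the span, and 9 of them were distal. The regions of MITF and PMEL lay just past the 5 kb limit, with 8 and 9 peaks and widest peaks of 5580 and 5530 bases, while the widest peaks at SOX10 and OCA2 measured 18040 and 10050 bases. Of 28 neural crest and Schwann cell genes, the transcription factor gene ETS1 had a start in a cluster (11 peaks over 53.27 kb, 4 promoter-associated). The outermost start of ETS1 lay outside the cluster, and none of the peaks held a start. Another 2 genes had a start in a dense region with a wider peak, so both shares rest on very few genes.

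Genes of the cAMP pathway, through which ATF/CREB factors are normally activated, contributed a few single loci. These counts are small and stand against 1.76% of all coding genes in clusters and 1.32% in dense regions with a wider peak. Of 21 ATF and CREB family genes, CREM alone had a start in a cluster, and none had one in a dense region with a wider peak. Only internal starts of CREM counted, since its outermost start lay outside the cluster. The cluster midpoint lay 80.04 kb along the 86.17 kb gene. CREM encodes the cAMP-responsive element modulator, with activating and repressing isoforms from several promoters. Its cluster (chr10:35191681-35221980) had 13 peaks of 430 to 2570 bases over 30.3 kb. Of these 8 were promoter-associated, and 8 of its 12 gaps measured between 300 and 750 bases. Of 33 cAMP response and immediate early genes, PRKAR1A, the regulatory subunit of protein kinase A, and PER1, a clock repressor, had a start in a cluster, and PDE4B overlapped one away from any start. The PRKAR1A cluster had 8 peaks over 32.56 kb, and the PER1 cluster, at chr17:8153771-8227380, had 15 peaks over 73.61 kb with 14 promoter-associated and also held AURKB and VAMP2. Of 15 AP-1 genes, JUND had a start in a cluster, of 10 peaks over 62.3 kb, and 2 others had one in a dense region with a wider peak. Of 16 genes that the study names, CREM alone did, against 4 in dense regions with a wider peak. The study names all 4 of these as having promoters looped to SEs. Those SEs were called from H3K27ac data of the same line, so the 4 are not separate evidence. None of 29 TGF-beta and BMP genes or of 26 chromatin acetylation genes had a start in a cluster, with intervals that include the 1.76% of all coding genes, while TGFB1 and KAT6B each overlapped one (1.93% of all coding genes did).

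**Figure D3:**
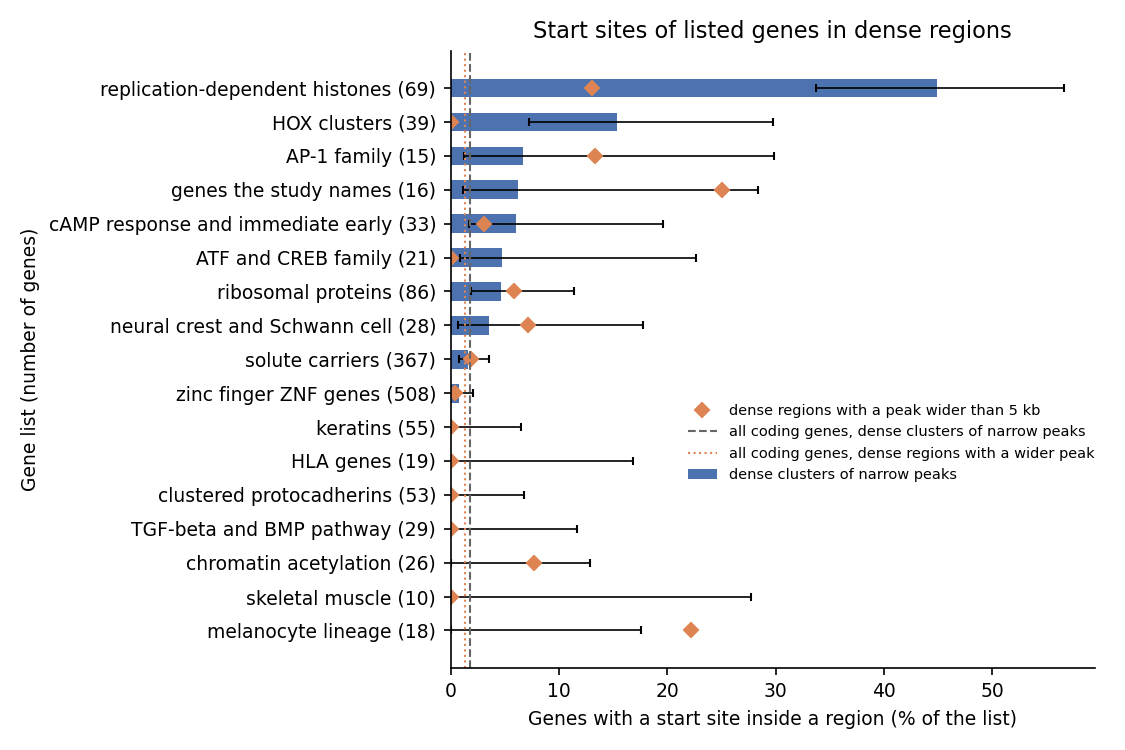
Share of each gene list (y axis, number of genes in parentheses) with a start site inside a dense region (x axis, % of the list). Blue bars are dense clusters of narrow peaks with 95% Wilson intervals, orange diamonds are dense regions with a peak wider than 5 kb, the dashed line is the 1.76% of all coding genes in such clusters, and the dotted line is the 1.32% in dense regions with a wider peak. Histones (44.93%) and HOX genes (15.38%) have the longest bars, and the melanocyte list has a diamond at 22.22% with no bar.

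Motifs were counted in the 772 gaps of 50 to 1000 bases inside clusters and in the peaks, on both strands. They were TGACGTCA, its flexible form TGANNTCA (which takes in TGACGTCA), the AP-1 element TGAGTCA, and runs of TGA or TCA triplets. The gaps had a median GC content of 42.86%, against 52.97% in promoter-associated and 47.63% in distal peaks of the clusters. Densities were not adjusted for base composition, and its part in the ratios was not tested. Runs were denser in short gaps than in peaks, at 110.7 against 69.06 per Mb, a ratio of 1.603 with an exact interval of 1.103 to 2.279 that covers counting only. In distal sequence alone the ratio was 1.362 and its interval, 0.834 to 2.143, spanned 1. For short gaps the ratio of runs was 1.818 (1.261 to 2.56) in dense regions with a wider peak and 2.138 in smaller clusters. It was 2.552 (2.283 to 2.848) over all joined regions. TGAGTCA occurred 181.7 times per Mb in gaps and 160.6 in peaks, a ratio of 1.131 (0.855 to 1.475), against 1.647 (1.521 to 1.781) over all joined regions. Its ratio was 1.035 in dense regions with a wider peak and 1.429 in smaller clusters. Of the 772 gaps 62 (8.03%) held TGAGTCA, against 9.9% of all short gaps. TGANNTCA gave 1.073 (0.928 to 1.236), against 1.053 in dense regions with a wider peak, 1.204 in smaller clusters and 1.361 over all joined regions. TGACGTCA gave 1.754 from only 10 occurrences in gaps (0.784 to 3.562), so a difference between gaps and peaks could not be resolved. Its direction turned with the sequence counted, at 0.406 (0.246 to 0.664) over gaps of every length and 4.413 (1.397 to 13.32) in distal sequence, from 7 occurrences in gaps. The same turn was seen elsewhere. For short gaps, all gaps and distal sequence the ratios were 1.277, 0.369 and 3.176 over all joined regions. In dense regions with a wider peak they were 1.32, 0.475 and 1.445, and in smaller clusters 1.497, 0.48 and 2.559. TGACGTCA lay in 1.295% of the short gaps of the dense clusters, against 1.072% of all short gaps, and a run in 5.052% against 5.457%. The gaps of the clusters are part of the set over all joined regions, and no test of the difference was made.

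**Figure D4:**
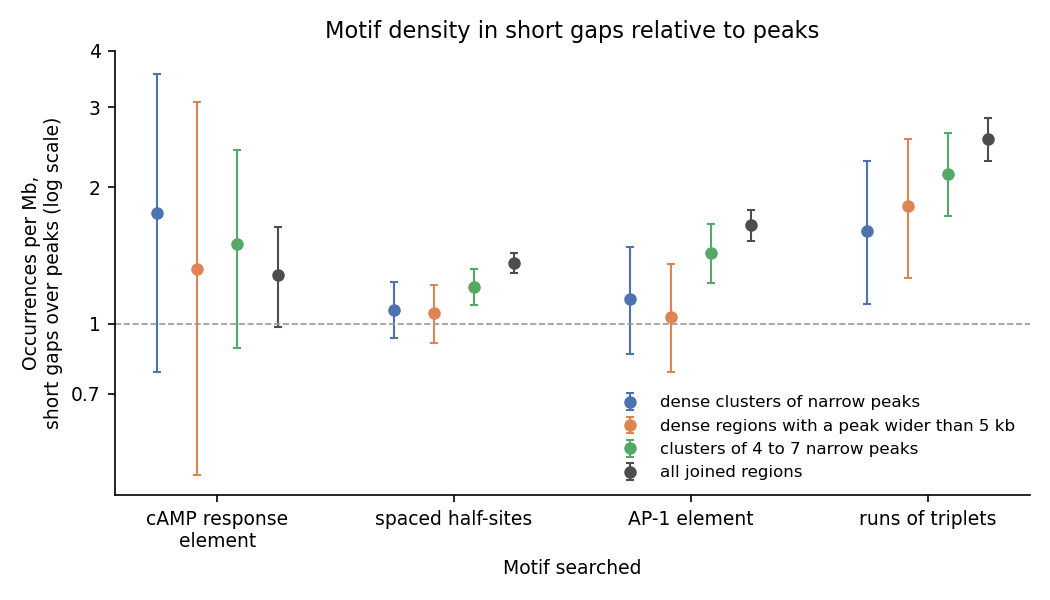
Ratio of motif occurrences per Mb in gaps of 50 to 1000 bases to those in peaks (y axis, log scale) for the 4 motifs (x axis), namely TGACGTCA, TGANNTCA, TGAGTCA and runs of TGA or TCA. Points are ratios with exact 95% intervals for each set of regions, and the dashed line marks equal density. Ratios are not adjusted for GC content, whose median was lower in the gaps than in the peaks. For the dense clusters of narrow peaks the interval lies above the line for runs (1.603) and spans it for the other 3 motifs.

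Single clusters differed in motif content. RAPGEF1 had 3 TGACGTCA, 2 of them in gaps, the highest number. For TGAGTCA the TECR cluster led with 21, of which 18 lay in gaps, followed by the SOX9-side cluster with 18. After the SOX9-side cluster, runs were most frequent at SEPTIN9 and CDC42EP3 (11 each) and at FYN and PRICKLE2 (10 each). These counts were not corrected for span, and TECR, at 81.71 kb, is among the longest clusters.

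Chromosome 6 held 22 clusters (12.09%, against 6.513% of all peaks) and chromosome 17 held 19 (10.44%, against 5.516%). Clusters took up 12.42% of the peaks on chromosome 6 and 12.25% of those on chromosome 17, against 6.01% overall. On chromosome 1 the share was 3.656%, with 10 clusters, on chromosome 22 it was 2.532%, with 2, and on chromosome 4 it was 1.952%, with 2. Dense regions with a wider peak numbered 7, 6, 11, 8 and 3 on chromosomes 6, 17, 1, 22 and 4. In all, 35 neighbouring pairs of clusters lay within 1 Mb of each other. The closest were GNAI2 and HYAL1 on chromosome 3, at 16.95 kb, apart from a pair on chromosome 8 at 12.53 kb, just past the joining distance. The median distance from a cluster to the nearest other joined region was 23.68 kb, against 34.97 kb over all joined regions, and 75 clusters had one within 20 kb.

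In 11 clusters, more than 50% of the 50-base words under the peaks occurred again elsewhere on chromosomes 1 to 22, X or Y, so their reads could have come from another copy. They were the clusters at H4C15, NPIPA1, NPIPA9, NPIPB4, NPIPB6, NPIPB9, NPIPB11 and PDXDC1, and those nearest to PLGLB2, TPTE and SLC35G4. The NPIP genes form a family of near-identical copies on chromosome 16, and 7 of the 13 clusters on that chromosome belong to this set. Such clusters were 6.044% of the members and 5.103% of all joined regions. Without them, 171 clusters remained, of which 29.82% lay within 1 coding gene, with 50.23% of their peaks promoter-associated.

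Values beside the limits of the rule were as follows. The 64 clusters of 8 peaks had a median span of 31.35 kb and 56.84% promoter-associated peaks, and the 87 narrow-peaked regions of 7 peaks had 25.85 kb and 51.72%. The longest just inside on peak number were VGLL4 (56.56 kb), TAPBP, the HOXC cluster, MGAT1 and STIP1, and just outside was the region of NR4A1 (7 peaks, 49.45 kb), an orphan nuclear receptor. On width, the widest peaks inside were CUX1 (4960 bases), NPIPB6 and PLGLB2 (4950 each), and CARS1 and GNAI2 (4940 each). Just outside were SERINC5 (5020), CLIP1 and QPCT (5080 each), PPT2-EGFL8 (5130) and the 19-peak region of BCL2L11 (5150), which encodes the pro-apoptotic protein BIM.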

How the data were processed

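The deposited file was 1 peak list for all libraries, whose columns give chromosome, start, end and name. Per the labels and methods, reads were mapped by the authors on hg38 using BWA 0.7.10-r789, and they called peaks with MACS2 2.2.6 in broad mode against input, and removed duplicates and ENCODE denylisted regions. The deposited list carries no score, count or per-replicate value, so the reads behind a peak are unknown. The methods give only an approximate depth for the libraries. A gap between peaks is below the calling cutoff, not free of acetylation, and broad calling sets how neighbouring segments are split.

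Peaks were joined, annotated with GENCODE version 44 (20015 protein-coding genes) and scanned for motifs in Python 3.11.15 (pysam 0.24.0, numpy 2.4.6, scipy 1.17.1, figures with matplotlib 3.10.9), with code tested on simulated data. Coordinates count from 1. A cluster was named by the protein-coding gene it overlapped most, otherwise by the nearest start. Copied words were 50 bases long, matched exactly on either strand. Shares have 95% Wilson intervals, and no test was made. Named clusters were those with the most peaks, longest, richest in starts, highest and lowest in promoter share, richest in motifs, those overlapping listed genes, and those next to a limit. Members, lists and motifs were chosen with earlier results of these data known, and the copied-word measure was added after seeing the clusters. Printed gaps were those of 50 to 300 bases with TGACGTCA or a run, chromosome 8 not searched. Some genes, 1 gene list and 1 gap are not reported here.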

Additional observations from a re-analysis of the deposited data

How the results depend on the processing

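Results were recomputed under other rules, changing 1 choice at a time. The number of clusters, 182, became 53 with a joining distance of 5 kb and 284 with 20 kb, 459 with at least 6 peaks and 77 with at least 10. It became 18 when peaks within 1000 bases were counted as 1, and 65 when peaks wholly within 2500 bases of a start were left out. Width limits of 4000 and 6000 bases gave 139 and 220. The promoter-associated share, 51.0%, became 47.88% and 53.74% with joining distances of 5 and 20 kb, 65.82% with close peaks counted as 1, and 13.7% with start-site peaks left out, which removes promoter peaks by construction. The 65.82% lay above the 61.3% of all peaks, a share that was not recomputed with close peaks counted as 1. The share in clusters was 36.18% with a 1 kb window (all peaks 51.25%), 41.59% with coding starts alone (51.74%) and 47.7% by peak midpoint (58.76%). In each of these last cases it was below the share over all peaks. The share within 1 coding gene, 29.12%, became 52.83% and 21.48% with the same joining distances, 11.11% with close peaks counted as 1 and 61.54% without start-site peaks. The ratio of TGACGTCA in gaps over peaks, 1.754, became 0.406 (0.246 to 0.664) over all gaps and 4.413 (1.397 to 13.32) in distal sequence, from 7 occurrences in gaps, and that of TGANNTCA, 1.073, became 0.865 in distal sequence. The TGACGTCA ratio moved likewise over all joined regions, from 1.277 to 0.369 over all gaps and 3.176 in distal sequence. For these motif changes the cause was not tested. The ratio for runs was 1.283 (1.073 to 1.539) over all gaps and 1.362 (0.834 to 2.143) in distal sequence, where the interval spans 1. Leaving out the 11 clusters of copied sequence, an alternative added after seeing the data, left 340 of 353 coding genes with a start. No paired analysis was possible because the list merges the replicates, and no replicate could be left out for the same reason. The single line, the missing signal values and the missing read counts per sample limit all counts.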
